A study of Mus musculus with 2 samples.

Results

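T cell receptor variable segments are the gene pieces that code for most of the antigen-binding face of the receptor. They were taken as every feature whose symbol starts with Trav, Trbv, Trgv or Trdv, for the alpha, beta, gamma and delta chains. The symbol prefixes gave 170 features: 128 Trav, 35 Trbv, 6 Trdv and Trgv2. The other 6 gamma segments are listed under the older symbols Tcrg-V1, Tcrg-V3, Tcrg-V4, Tcrg-V5, Tcrg-V6 and Tcrg-V7 and were added, which made 176 of 32286 features.

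The 2 libraries held lung cells of BALB/c mice that carried 4T1 tumours, a mouse mammary carcinoma line placed in the mammary fat pad, and lungs were taken on day 14. The treated library came from mice given the S100A4-11 antibody, and the control library from mice given IgG antibody; tumour, strain and day were shared. Each group had 1 library and the number of animals in it is not stated, so no difference between libraries could be tested, and all intervals below are exact 95% intervals that cover counting error only. Cells of 1 library are not replicates.

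T barcodes were those with at least 1 UMI (a counted RNA molecule) of Cd3d, Cd3e or Cd3g and no Cd79a UMI, after quality filters. There were 1193 in the S100A4-11 library and 1220 in the IgG library, of 12506 and 14411 deposited barcodes. CD8 barcodes (Cd8a or Cd8b1 without Cd4) numbered 218 and 213, and CD4 barcodes (Cd4 without Cd8a or Cd8b1) 322 and 292. Gamma-delta barcodes, with Trdc and neither coreceptor, numbered 20 and 26. Another 615 and 673 T barcodes held none of these transcripts, and 18 and 16 held both coreceptors and were put in neither class.

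The barcodes of these classes held RNA of other lung cell types. In the 615 S100A4-11 and 673 IgG barcodes without a coreceptor, 4 of 4 neutrophil markers were detected, at summed levels of 104271 CPM (UMIs per 1000000 UMIs of the class) and 98257 CPM. Neutrophil markers summed to 1262 CPM in S100A4-11 CD8 barcodes against 3952 CPM in IgG CD8 barcodes. In CD4 barcodes they summed to 5317 CPM against 12619 CPM, though Csf3r went the other way there, at 52.2 CPM against 45.5 CPM. The epithelial markers Epcam and Sftpc summed to 78.7 CPM in S100A4-11 CD8 barcodes against 3468 CPM in IgG CD8 barcodes. In CD4 barcodes they summed to 70.1 CPM against 2029 CPM. This difference lay in Sftpc, at 72.3 CPM against 3463 CPM in CD8 barcodes and 58.3 CPM against 2017 CPM in CD4 barcodes. Epcam stood at 6.33 CPM against 4.78 CPM in CD8 barcodes and 11.8 CPM against 12.5 CPM in CD4 barcodes. In barcodes without a coreceptor or Trdc, Csf3r was found in 40.0% (S100A4-11) and 37.7% (IgG), against 5.28% and 6.51% of CD4 barcodes. Cd3e was found in 51.9% and 52.2% of the same barcodes, against 96.0% and 96.2% of CD4 barcodes. How many of them were neutrophils was not tested, nor whether the RNA was free or captured, nor its part in the results. The libraries shared 266 barcode sequences.

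An alpha-beta T cell joins 1 Trav to a Traj segment and 1 Trbv to a Trbd and a Trbj segment, and the join, CDR3, begins at a conserved cysteine near the end of the V segment. Trav and Trbv therefore set the outer loops of the receptor, while CDR3 is particular to a clone and is not read in these gene counts. Beta segments also have an older numbering by antibody: Trbv13-1, Trbv13-2 and Trbv13-3 form the V beta 8 family. Endogenous mouse mammary tumour viruses of BALB/c mice code for superantigens that delete T cells by their V beta, among them those with Trbv26, Trbv12-1, Trbv12-2, Trbv15 and Trbv16.

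The ends of the beta segments on which the results turn are shown first, because they carry the germline bases with which CDR3 begins. Each line is the last 60 bases of the segment's transcript in GENCODE M21 on GRCm38, 5′ to 3′, and the capitals mark the codon of the conserved cysteine. The reference strain is C57BL/6J, so BALB/c alleles may differ.
Trbv13-1: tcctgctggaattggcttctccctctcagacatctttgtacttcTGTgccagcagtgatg
Trbv13-2: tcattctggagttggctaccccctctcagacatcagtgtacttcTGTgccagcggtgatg
Trbv13-3: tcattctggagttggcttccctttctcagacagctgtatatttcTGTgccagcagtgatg
Trbv12-2: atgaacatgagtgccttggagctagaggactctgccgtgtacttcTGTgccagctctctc
Trbv16: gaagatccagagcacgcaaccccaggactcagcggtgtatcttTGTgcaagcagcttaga
Trbv20: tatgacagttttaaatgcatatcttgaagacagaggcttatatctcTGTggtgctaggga
Trbv29: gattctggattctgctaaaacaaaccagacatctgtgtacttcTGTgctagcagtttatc
Trbv31: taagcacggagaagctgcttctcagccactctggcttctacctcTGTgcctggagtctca
All of them lie on chromosome 6: Trbv13-1 at chr6:41116007-41116468, Trbv12-2 at chr6:41118851-41119364, Trbv13-2 at chr6:41121396-41121832, Trbv13-3 at chr6:41130147-41130585, Trbv16 at chr6:41151740-41152230, Trbv20 at chr6:41188273-41188977 and Trbv29 at chr6:41271394-41271881, on the plus strand. Trbv31 lies at chr6:41557691-41558452 on the minus strand. Each feature consists of the exons of a V gene (a leader exon and the V exon), and the bases shown are the 3′ end of its V exon. Trbv13-2 was 90.6% identical to Trbv13-3 and 88.6% identical to Trbv13-1, against 50.3% to its neighbour Trbv12-2. None of the 35 Trbv segments had an identical copy or a copy at 98% identity or more.

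Trbv transcripts marked CD8 and CD4 barcodes cleanly. At least 1 Trbv UMI was found in 88.1% of S100A4-11 CD8 barcodes and 85.4% of IgG CD8 barcodes, and in 84.8% of S100A4-11 CD4 barcodes and 83.9% of IgG CD4 barcodes. In neutrophil barcodes without Cd3 the share was 0.914% in the S100A4-11 library and 0.817% in the IgG library, at median depths of 3953 and 4162 UMIs against 4630 and 4806 in CD8 barcodes. In B barcodes without Cd3 it was 0 of 1443 in the S100A4-11 library, which allows a share of up to 0.208%, and 1 of 997 in the IgG library. Gamma-delta barcodes held a Trbv UMI in 10% of cases in the S100A4-11 library and 11.5% in the IgG library. Among the 615 and 673 T barcodes without a coreceptor the shares were 43.4% and 41.8%.

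The neutrophil background was mostly 1 segment. Trbv1 made up 23 of the 27 Trbv-positive neutrophil barcodes in the S100A4-11 library and 20 of the 33 in the IgG library, so Trbv1 calls carry more of this background than other segments do. Trav UMIs were found in 69.3% of S100A4-11 CD8 barcodes and 70.9% of IgG CD8 barcodes, and in 77.6% of S100A4-11 CD4 barcodes and 70.2% of IgG CD4 barcodes. After every barcode was thinned to 500 UMIs, with no barcode lost, Trav was found in 25.2% of S100A4-11 CD4 barcodes and 18.5% of IgG CD4 barcodes, and Trbv in 36.0% and 34.6%. A called segment, the one with most UMIs of its chain, rested on a median of 4 UMIs for Trbv and 2 UMIs for Trav in CD8 and in CD4 barcodes of both libraries.

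**Figure D1:**
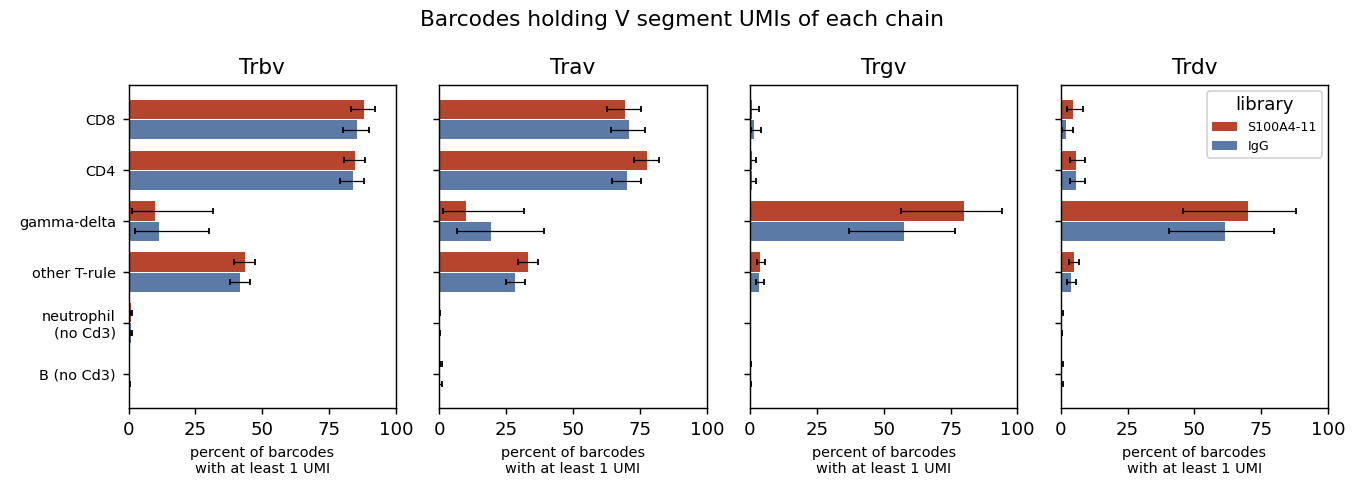
Percent of barcodes with at least 1 UMI of each chain's V segments (x axes) by cell set (rows), S100A4-11 above IgG, with exact 95% counting intervals. Trbv and Trav UMIs stand at 69.3% or more of CD8 and CD4 barcodes, Trgv and Trdv UMIs at 57.7% or more of gamma-delta barcodes, and all 4 chains lie at 0.914% or less in neutrophil and B barcodes without Cd3.

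Use of Trbv segments was broad, and Trbv13-2 of the V beta 8 family was the most called segment in CD8 and in CD4 barcodes of both libraries. CD8 barcodes with a call (187 S100A4-11, 175 IgG) used 18 and 20 segments, and CD4 barcodes (268 and 235) used 20 and 19. Trbv13-2 was called in 37 S100A4-11 CD8 barcodes (19.8%, 14.3 to 26.2) and 30 IgG CD8 barcodes (17.1%, 11.9 to 23.6). In CD4 barcodes it was called in 39 S100A4-11 barcodes (14.6%) and 37 IgG barcodes (15.7%). The V beta 8 family as a whole took 39.0% of S100A4-11 CD8 calls and 37.1% of IgG CD8 calls, a ratio of 1.05 (0.74 to 1.49), and 33.6% and 31.9% of CD4 calls, also a ratio of 1.05 (0.77 to 1.45).

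Trbv19 was called in 23 S100A4-11 CD8 barcodes (12.3%) and 25 IgG CD8 barcodes (14.3%), and in 29 S100A4-11 CD4 barcodes (10.8%) and 34 IgG CD4 barcodes (14.5%). Trbv13-1 was called in 21 S100A4-11 and 18 IgG CD8 barcodes, and in 29 and 26 CD4 barcodes. Trbv13-3 was called in 15 S100A4-11 and 17 IgG CD8 barcodes, and in 22 and 12 CD4 barcodes. Trbv1 was called in 10 and 14 CD8 barcodes, and in 23 and 13 CD4 barcodes. Trbv2 was called in 6 and 12 CD8 barcodes, and in 19 and 12 CD4 barcodes.

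No Trbv segment differed between the libraries by 1.5-fold or more with an interval that left out 1. Segments with at least 10 called barcodes over both libraries were compared, and 0% of 10 in CD8 barcodes, 0% of 13 in CD4 barcodes and 0% of 16 in all T barcodes passed. Nearest to that line was Trbv20 in CD4 barcodes, called in 13 S100A4-11 barcodes (4.85%, 2.61 to 8.15) and 23 IgG barcodes (9.79%, 6.31 to 14.3). Its ratio was 0.50 (0.23 to 1.02), and with doublets kept it was 0.48 (0.23 to 0.95). In CD8 barcodes, Trbv20 was called 8 times in each library. Even for Trbv13-2, the most used segment, the CD8 ratio of 1.15 had an interval of 0.69 to 1.93, and differences inside such intervals were not detectable at this depth.

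**Figure D2:**
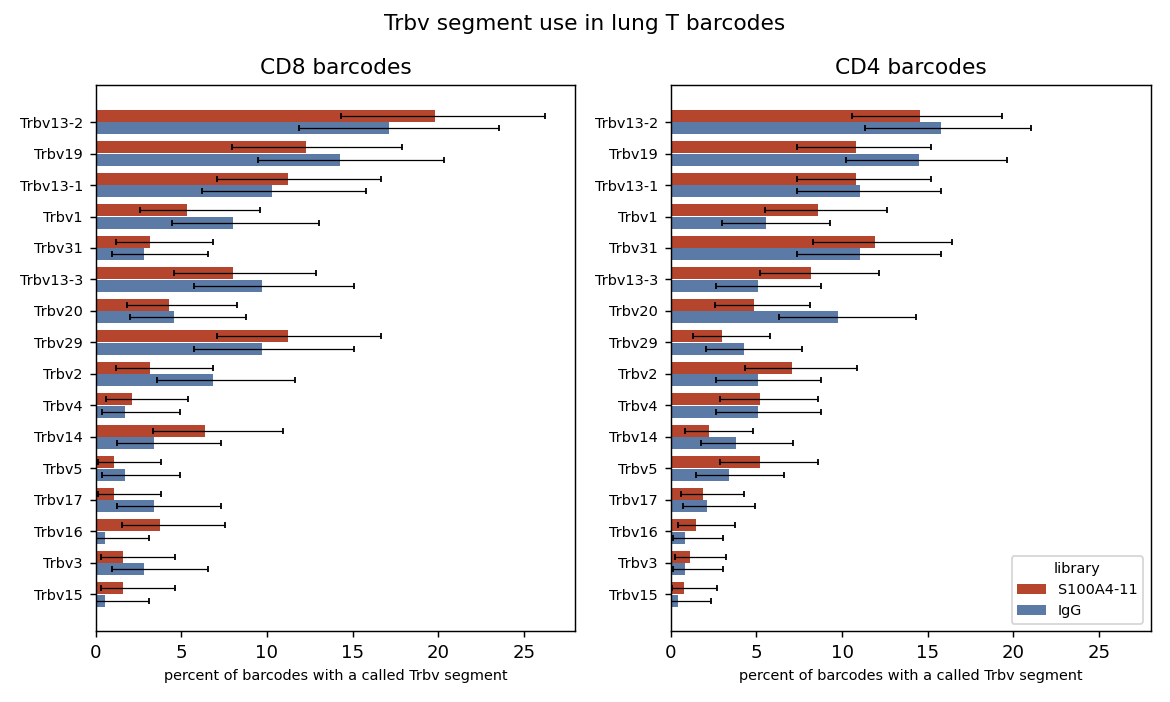
Percent of barcodes with a called Trbv segment that used each segment (x axes), for CD8 barcodes (left) and CD4 barcodes (right), S100A4-11 above IgG, with exact 95% counting intervals. Segments are ordered by calls over all T barcodes; Trbv13-2 has the longest bars, and Trbv31 and Trbv29 differ between the CD8 and CD4 panels more than between libraries.

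Within each library, Trbv31 took a smaller and Trbv29 a larger share of CD8 than of CD4 calls. Trbv31 was called in 6 CD8 barcodes (3.21%) and 32 CD4 barcodes (11.9%) of the S100A4-11 library, a ratio of 0.27 (0.09 to 0.65). In the IgG library it was called in 5 CD8 barcodes (2.86%) and 26 CD4 barcodes (11.1%), a ratio of 0.26 (0.08 to 0.68). Both intervals left out 1. With UMIs in place of barcodes the ratio was 0.21 (0.12 to 0.33) in the S100A4-11 library, and 0.69 (0.51 to 0.93) in the IgG library, where it was no longer past 1.5-fold.

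Trbv29 was called in 21 CD8 barcodes (11.2%) and 8 CD4 barcodes (2.99%) of the S100A4-11 library, a ratio of 3.76 (1.60 to 9.82). In the IgG library it was called in 17 CD8 barcodes (9.71%) and 10 CD4 barcodes (4.26%). That ratio was 2.28, with an interval that includes 1 (0.99 to 5.58), and with at least 2 Cd3 UMIs it was 2.51 (1.06 to 6.38). By UMIs the difference was smaller in each library. Trbv29 held 134 of 950 Trbv UMIs in CD8 and 134 of 1739 in CD4 barcodes of the S100A4-11 library. In the IgG library it held 97 of 1009 and 70 of 1330. Trbv5 was called in 2 CD8 and 14 CD4 barcodes of the S100A4-11 library (ratio 0.20, 0.02 to 0.89) and in 3 and 8 of the IgG library (0.50, 0.09 to 2.10). Trbv4 stood at 4 CD8 and 14 CD4 barcodes in the S100A4-11 library and at 3 and 12 in the IgG library, with both intervals including 1. Over the 13 segments compared in each library, 7.69% were higher and 15.4% lower in CD8 than in CD4 barcodes of the S100A4-11 library, and 0% higher and 7.69% lower in the IgG library. Whether the CD8 to CD4 ratio differed between libraries was not tested.

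**Figure D3:**
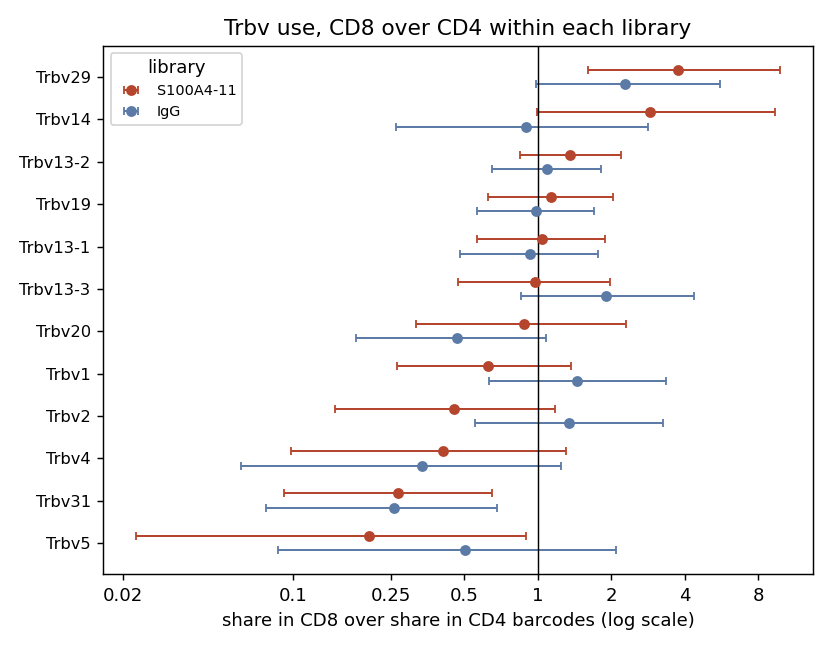
Share of each Trbv segment in CD8 over its share in CD4 barcodes (x axis, log scale) within each library, S100A4-11 above IgG, with exact 95% counting intervals, for segments with at least 10 called CD8 and CD4 barcodes in each library. Trbv31 lies left of 1 in both libraries (0.27 and 0.26) and Trbv29 right of 1 (3.76 and 2.28).

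The superantigen-sensitive segments were rare but present, and some segments outside this list were also rare. Over all T barcodes, Trbv16 was called in 13 S100A4-11 and 10 IgG barcodes. Outside the list, Trbv3 was called in 9 and 7, and Trbv30 in 6 and 3. Trbv26, Trbv12-1, Trbv12-2, Trbv15 and Trbv16 together made up 13 of 187 S100A4-11 CD8 calls (6.95%, 3.75 to 11.6) and 4 of 175 IgG CD8 calls (2.29%, 0.63 to 5.75), a ratio of 3.04 whose interval includes 1 (0.94 to 12.8). In CD4 barcodes they made up 3.36% of S100A4-11 calls and 2.13% of IgG calls, a ratio of 1.58 (0.475 to 5.995). T barcodes without a coreceptor had 3 of 260 S100A4-11 calls (1.15%) and 15 of 272 IgG calls (5.51%), a ratio of 0.21 (0.039 to 0.74); these are the barcodes with the highest neutrophil marker levels, and whether this ratio differs from that of CD8 barcodes was not tested. Over all T barcodes the shares were 3.68% in the S100A4-11 library and 3.44% in the IgG library. The CD8 count came mostly from Trbv16, called in 7 S100A4-11 and 1 IgG barcode (ratio 6.55, 0.84 to 295). Trbv15 and Trbv12-2 were each called in 3 S100A4-11 and 1 IgG CD8 barcode, Trbv12-1 in 0 and 1, and Trbv26 in none of either library.

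Trbv12-2 transcripts appeared mainly inside barcodes that used its neighbour. A Trbv12-2 UMI was found in 31 S100A4-11 and 35 IgG CD8 or CD4 barcodes, of which 24 and 23 also held Trbv13-2 and only 3 and 1 were called Trbv12-2. Among barcodes called Trbv13-2, Trbv12-2 was found in 18 of 76 S100A4-11 barcodes (23.7%, 14.7 to 34.8) and 20 of 67 IgG barcodes (29.9%, 19.3 to 42.3). Among barcodes called for another segment it was found in 2.39% and 2.92%. The 2 genes lie next to each other on the plus strand, with Trbv12-2 ending before Trbv13-2 begins. How these UMIs arose was not tested. Where both were present, Trbv12-2 had 34 UMIs against 173 of Trbv13-2 in the S100A4-11 library, and 27 against 140 in the IgG library.

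A second Trbv segment of any kind was found in 24.7% of S100A4-11 and 27.6% of IgG barcodes with a Trbv UMI (115 of 465 and 118 of 427 CD8 and CD4 barcodes). The leading segment held 92.5% and 92.0% of the Trbv UMIs. GENCODE M21 names 22 of the 35 Trbv segments as functional genes, of which 20 were called in T barcodes of each library, and 13 as pseudogenes. Of the pseudogenes, 1 was called: Trbv24, in 5 S100A4-11 and 3 IgG T barcodes. Trbv24 was chosen for naming after its values were seen.

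Regulatory T cells are marked by the transcription factor Foxp3, and Trbv13-2 was the most used segment in CD4 barcodes with and without it. A Trbv call was made in 45 S100A4-11 and 21 IgG CD4 barcodes with Foxp3, and in 223 and 214 without. Trbv13-2 was called in 8 with Foxp3 (17.8%) and 31 without (13.9%) in the S100A4-11 library, and in 5 (23.8%) and 32 (14.95%) in the IgG library. Trbv31 was called in 7 (15.6%) and 25 (11.2%) in the S100A4-11 library, and in 2 (9.52%) and 24 (11.2%) in the IgG library. Of 10 segments compared in each library, 0% were higher and 0% lower past 1.5-fold with an interval that left out 1; with 21 called IgG barcodes only large differences could have shown.

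Alpha segments are reported by family, because 46 of the 128 Trav segments have an identical copy in the annotation and 76 have one at 98% identity or more. The families come from duplications of the alpha locus, and reads cannot be placed among identical copies. The 4 segments used for alpha, gamma and delta results are shown in the same way as the beta segments.
Trav1: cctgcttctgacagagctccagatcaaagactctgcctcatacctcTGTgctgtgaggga
Tcrg-V6: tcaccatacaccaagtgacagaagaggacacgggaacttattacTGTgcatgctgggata
Trdv4: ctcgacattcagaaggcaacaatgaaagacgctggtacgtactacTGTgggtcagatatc
Trdv1: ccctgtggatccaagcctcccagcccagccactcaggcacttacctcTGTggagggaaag
Trav1 lies at chr14:52427928-52428876, Trdv1 at chr14:53881612-53882217 and Trdv4 at chr14:54074905-54075515, all on chromosome 14 and the plus strand, and Tcrg-V6 at chr13:19190356-19190929 on chromosome 13, also on the plus strand. Trav1 has no close copy: its nearest segment, Trav3d-3, was 54.7% identical.

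Among T barcodes with a Trav family call (560 S100A4-11, 518 IgG), Trav7 was the most used, with 63 barcodes (11.3%) and 78 barcodes (15.1%). Trav3 had 55 and 55 barcodes, Trav14 58 and 49, Trav4 50 and 49, and Trav6 49 and 47. Trav9, Trav13, Trav12, Trav5 and Trav8 had 44, 38, 41, 32 and 35 barcodes in the S100A4-11 library, and 36, 41, 20, 25 and 21 in the IgG library. Of 18 families compared, 11.1% passed 1.5-fold with an interval that left out 1: Trav1 and Trav12. Of the 10 families compared in CD8 barcodes and the 12 in CD4 barcodes, 0% passed.

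Trav1, the alpha segment of mucosal-associated invariant T (MAIT) cells, was called in 1 S100A4-11 barcode (0.179%, 0.0045 to 0.991) and 15 IgG barcodes (2.90%, 1.63 to 4.73), a ratio of 0.062 (0.0015 to 0.40). In CD8 barcodes it was called in 0 of 137 in the S100A4-11 library, which allows a share of up to 2.19%, and in 7 of 141 in the IgG library. In CD4 barcodes it was called in 0 of 223 in the S100A4-11 library and in 4 of 184 in the IgG library. Here the 0 allows up to 1.35% at a limit of 3 counts, and up to 1.64% by the exact interval. Counting every T barcode with a Trav1 UMI, called or not, gave 4 barcodes with 12 UMIs in the S100A4-11 library and 19 barcodes with 39 UMIs in the IgG library. In barcodes without Cd3 a Trav1 UMI was found in 1 of 10527 S100A4-11 and 1 of 12398 IgG barcodes. The ratio was 0.12 (0.01 to 0.51) with doublets kept, a shift of over 1.5-fold that rests on few barcodes.

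The 15 IgG barcodes with Trav1 were not of 1 kind. Their classes were CD8 in 7, CD4 in 4 and no coreceptor in 4. They used 9 different Trbv segments, with Trbv19 in 3, Trbv13-1, Trbv13-2 and Trbv13-3 in 2 each, and 5 other segments in 1 each. Zbtb16, the transcription factor PLZF of innate-like T cells, was found in 6 of 15 (40%, 16.3 to 67.7) and in 11.4% of IgG barcodes with other Trav families. Cxcr6 was found in 5 of 15 against 7.39%, and Il2rb in 7 of 15 against 28.1%. Klrb1c was found in 0 of 15 against 0.399%, Il4 in 0 of 15 against 2.59%, and Traj18 in 0 of 15 against 0%. The single S100A4-11 barcode with Trav1 had no coreceptor, used Trbv13-3 and held Zbtb16.

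Trav12 was higher, with 41 S100A4-11 barcodes (7.32%) and 20 IgG barcodes (3.86%), a ratio of 1.90 (1.09 to 3.42). With at least 2 UMIs required for a call its interval included 1 (0.97 to 4.28). Trav12 was called in 9 S100A4-11 and 10 IgG CD8 barcodes (ratio 0.93, 0.33 to 2.54), and in 11 and 4 CD4 barcodes (2.27, 0.67 to 9.77). T barcodes without a coreceptor, those with the highest neutrophil marker levels, gave 21 and 6 of these calls (3.33, 1.30 to 10.1). The part of the neutrophil RNA in this difference was not tested. The Trav11 family holds the alpha segment of invariant natural killer T cells, in the identical copies Trav11 and Trav11d. The family was called in 1 S100A4-11 barcode (0.179%) and 2 IgG barcodes (0.386%), each on 1 UMI. All of these UMIs were counted on Trav11n, which GENCODE M21 lists as a pseudogene and which is 97.7% identical to Trav11; no UMI in T barcodes was counted on Trav11 or Trav11d, so the invariant segment itself was not measured. The 3 barcodes held Zbtb16 and no coreceptor, and none held Traj18, the joining segment of the invariant chain.

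Trav use in CD8 and CD4 barcodes differed past 1.5-fold, with an interval that left out 1, for Trav4 and Trav16 in the S100A4-11 library. No family met both conditions in the IgG library. Trav4 was called in 8 CD8 barcodes (5.84%) and 30 CD4 barcodes (13.5%) of the S100A4-11 library, a ratio of 0.43 (0.17 to 0.97), and in 7 (4.96%) and 19 (10.3%) of the IgG library, a ratio of 0.48 (0.17 to 1.19). Trav16 was called in 13 CD8 barcodes (9.49%) and 8 CD4 barcodes (3.59%) of the S100A4-11 library, a ratio of 2.65 (1.02 to 7.36), against 5 and 6 barcodes of the IgG library, a ratio of 1.09 (0.26 to 4.28). Of 12 families compared in each library, 8.33% were higher and 8.33% lower in CD8 than in CD4 barcodes of the S100A4-11 library, and 0% and 0% in the IgG library.

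**Figure D4:**
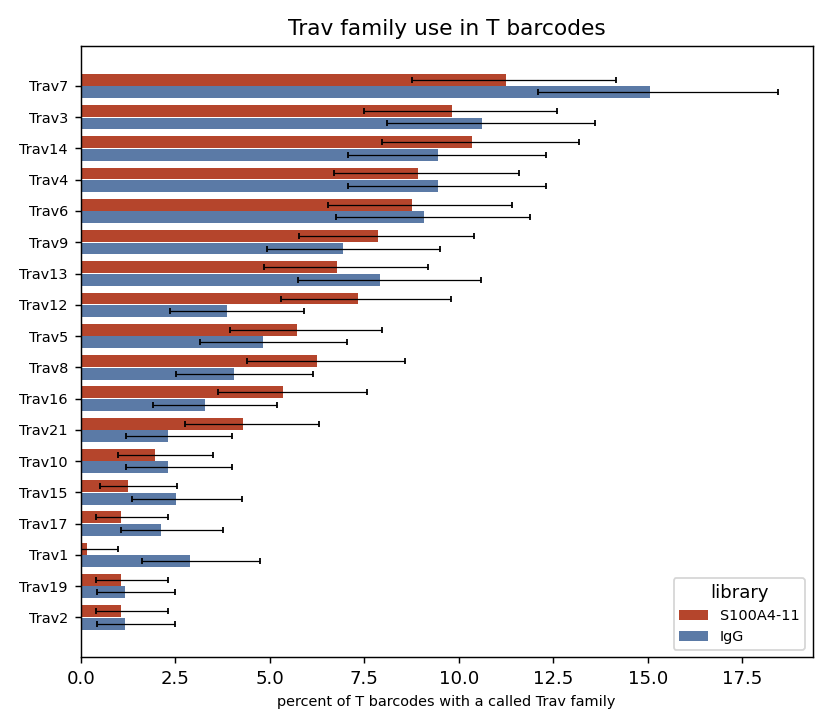
Percent of T barcodes with a called Trav family that used each family (x axis), S100A4-11 above IgG, with exact 95% counting intervals, for families with at least 10 barcodes over both libraries. Trav1 (1 and 15 barcodes) and Trav12 (41 and 20 barcodes) are the families whose ratio interval leaves out 1.

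Pairs of a Trav family and a Trbv segment were mostly seen in few barcodes. CD8 barcodes with both calls numbered 124 in the S100A4-11 library and 118 in the IgG library, and held 81 and 83 different pairs, of which 52 and 60 were seen once. CD4 barcodes with both calls numbered 185 and 147 and held 110 and 93 pairs, of which 63 and 62 were seen once. The most used pair held 5 S100A4-11 and 6 IgG CD8 barcodes, and 5 and 5 CD4 barcodes. Trav7 with Trbv13-2 was seen in 3 S100A4-11 and 6 IgG CD8 barcodes, and Trav3 with Trbv13-2 in 5 and 2. The libraries shared 35 pairs in CD8 and 50 in CD4 barcodes. A shared pair is no clone, since CDR3 is not read.

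Gamma-delta T cells use Trgv with Trdv segments, and the lung is known to hold Tcrg-V6 cells that make interleukin 17. Among gamma-delta barcodes, defined by Trdc, Tcrg-V6 was the most called gamma segment, in 9 of 16 S100A4-11 gamma-delta barcodes (56.3%, 29.9 to 80.2) and 9 of 14 IgG gamma-delta barcodes (64.3%). All 9 and all 9 were paired with Trdv4, the delta segment shown above. The other gamma calls were Tcrg-V4 in 3 S100A4-11 and 0 IgG barcodes, Trgv2 in 2 and 3, Tcrg-V1 in 2 and 1, and Tcrg-V5 in 0 and 1. Delta calls were Trdv4 in 11 S100A4-11 and 10 IgG barcodes, Trdv5 in 3 and 3, and Trdv2-2 in 0 and 3. Most gamma and delta calls lay outside these barcodes. Of 42 S100A4-11 and 38 IgG gamma calls in all T barcodes, 22 and 19 were in T barcodes without a coreceptor or Trdc, where Trgv2 had 13 and 12 and Tcrg-V6 had 1 and 4. Over all T barcodes Trgv2 was called most, in 17 and 18, against 10 and 14 for Tcrg-V6. Trgv2 was 95.2% and Tcrg-V3 94% identical to Tcrg-V1, and whether calls among these were misplaced was not tested. The nearest segment to Tcrg-V6 was Tcrg-V4, at 52.6% identity. Trdv4 was called in 25 and 25 T barcodes, of which 12 and 15 were among those without a coreceptor or Trdc. In barcodes without Cd3, a Trdv4 UMI was found in 40 of 10527 (0.380%) in the S100A4-11 library and 50 of 12398 (0.403%) in the IgG library.

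Tcrg-V6 barcodes held transcripts of marker genes of interleukin 17 cells, which the choice of barcodes did not use. Cd163l1, a scavenger receptor gene used as a marker of these cells, was found in 9 of 9 S100A4-11 and 9 of 9 IgG Tcrg-V6 barcodes, and in 0 of 540 and 0 of 505 CD8 and CD4 barcodes. Il17a was found in 4 of 9 (89 UMIs) and 6 of 9 (82 UMIs) Tcrg-V6 barcodes, and in 1 of 540 and 0 of 505 CD8 and CD4 barcodes. Il23r, the interleukin 23 receptor, was found in 7 of 9 and 9 of 9, and the kinase gene Blk in 9 of 9 and 7 of 9. Cd27, a marker of gamma-delta cells that make interferon, was found in 0 of 9 and 0 of 9. CD8 and CD4 barcodes held it in 325 of 540 (S100A4-11) and 284 of 505 (IgG). Tbx21 went the other way, in 2 of 9 and 4 of 9 Tcrg-V6 barcodes against 27 of 540 and 27 of 505. Ifng was found in 1 of 9 and 1 of 9 against 22 of 540 and 20 of 505. Eomes was found in 0 and 0 Tcrg-V6 barcodes, and Klrd1 in 1 and 0.

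Sox13 was found in 5 of 9 S100A4-11 and 6 of 9 IgG Tcrg-V6 barcodes, Maf in 7 and 6, Zbtb16 in 7 and 6, and Il1r1 in 3 and 7. Gamma-delta barcodes with other gamma segments numbered 7 in the S100A4-11 library and 5 in the IgG library. Il17a was found in 0 and 1 of them, Cd163l1 in 1 and 1, and Cd27 in 2 and 3. Other markers were partly shared with Tcrg-V6 barcodes: Blk was found in 4 and 0 of them, Maf in 3 and 0, and Il23r in 2 and 1. Zbtb16 was found in 2 and 3, Il1r1 in 1 and 2, and Sox13 in 1 and 0. Gamma-delta barcodes without a gamma call numbered 4 and 12, held no Il17a, Cd163l1, Blk or Il23r in either library, and held Klrd1, a natural killer receptor gene, in 2 and 6. NK markers summed to 1939 CPM in S100A4-11 and 2211 CPM in IgG gamma-delta barcodes, with 6 of 6 markers detected in each, and their part was not tested.

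**Figure D5:**
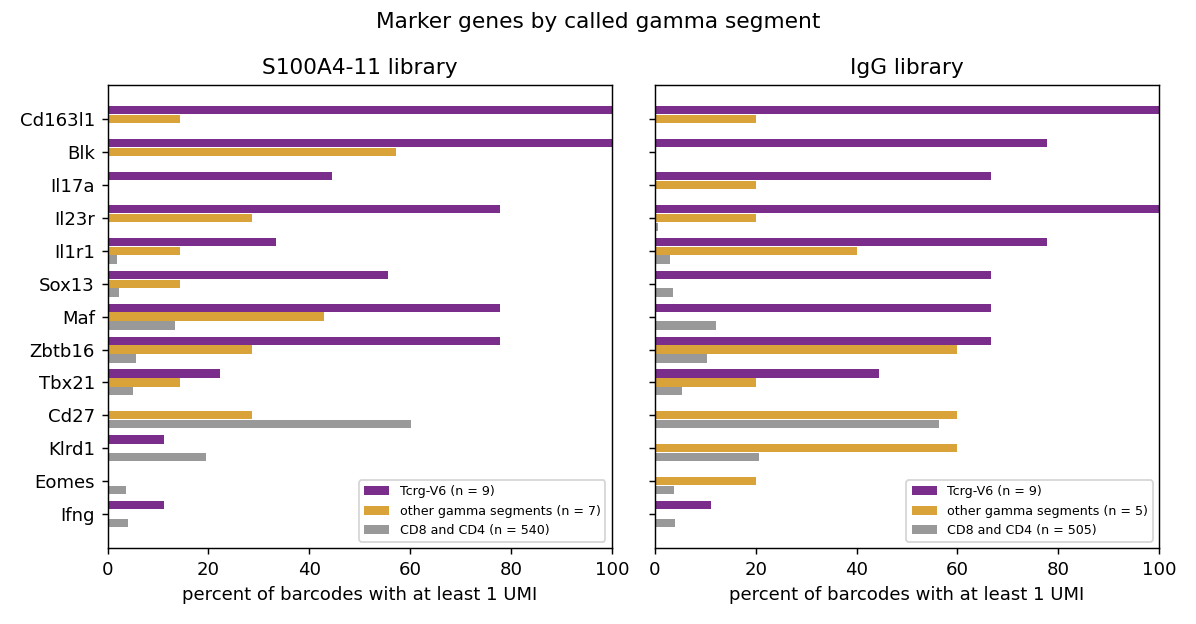
Percent of barcodes with at least 1 UMI of 13 marker genes (x axes) in Tcrg-V6 barcodes, gamma-delta barcodes with another gamma segment, and CD8 and CD4 barcodes, for the S100A4-11 library (left) and the IgG library (right). Cd163l1 is at 9 of 9 Tcrg-V6 barcodes and at 0 of 540 and 0 of 505 CD8 and CD4 barcodes, and Cd27 shows the reverse order.

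Some delta segments were found in CD8 and CD4 barcodes. Trdv1 was found in 11 S100A4-11 and 6 IgG CD8 or CD4 barcodes, of which 11 and 5 held a Trbv UMI and none held Trdc, the delta constant gene. No gamma-delta barcode of either library held Trdv1, and in barcodes without Cd3 it was found in 1 of 10527 in the S100A4-11 library. A Trav UMI was found in 7 of the 11 S100A4-11 barcodes with Trdv1 and in 1 of the 6 in the IgG library. CD8 and CD4 barcodes without Trdv1, Trdv2-1 or Trdv2-2 held Trbv in 85.8% (S100A4-11) and 84.3% (IgG), and Trav in 75.2% and 71.3%. They held Trdc in only 1 of 513 and 5 of 485, so its absence beside Trdv1 says little. The delta locus lies inside the alpha locus, and a Trdv segment can be joined to an alpha or a delta chain. Trdv2-2 was found in 14 S100A4-11 and 14 IgG CD8 or CD4 barcodes, with Trdc in 0 and 2 of them. Unlike Trdv1, it was also found in 93 of 10527 (0.883%) and 64 of 12398 (0.516%) barcodes without Cd3. In neutrophil barcodes its background was 0.305% and 0.198%.

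V transcripts of the alpha, beta and gamma chains, summed over all T barcodes, were at a higher level in the S100A4-11 library. For alpha and beta the difference was smaller within CD8 and CD4 barcodes. Trbv segments reached 656 CPM in the S100A4-11 library and 518 CPM in the IgG library, a ratio of 1.27 (1.21 to 1.32). Trav segments reached 288 CPM and 219 CPM, a ratio of 1.32 (1.23 to 1.41). In CD8 barcodes the ratios were 1.07 for Trbv (0.98 to 1.17) and 1.16 for Trav (0.999995 to 1.34), both with intervals that include 1. In CD4 barcodes they were 1.18 for Trbv (1.095 to 1.265) and 1.23 for Trav (1.11 to 1.36). The alpha constant gene Trac was not higher in CD4 barcodes, at 0.95 (0.78 to 1.14). The beta constant genes there stood at 1.45 for Trbc1 (1.13 to 1.86) and 1.24 for Trbc2 (1.04 to 1.48). Over all T barcodes, Trgv segments reached 26.8 CPM and 18.6 CPM, a ratio of 1.44 (1.14 to 1.81) on 174 and 133 UMIs. Trdv segments reached 42.1 CPM and 39.8 CPM, a ratio of 1.06 with an interval that includes 1 (0.89 to 1.26). These intervals treat UMIs as independent, which UMIs of 1 cell are not. The IgG CD8 and CD4 barcodes also held higher summed levels of neutrophil markers and more Sftpc, as given above.

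Of 73 V segments with at least 20 UMIs in T barcodes, 28.8% passed 1.5-fold with an interval that left out 1 (24.7% higher, 4.11% lower), against 12.7% of all 13052 features (1.92% higher, 10.8% lower). The median ratio was 1.27 over V segments and 0.97 over all features. In CD8 barcodes the shares were 35.7% of 28 V segments and 14% of all features, and in CD4 barcodes 39.1% of 46 and 9.68%. The UMIs of a segment came from few cells: Trbv16 had 160 UMIs in the S100A4-11 library and 57 in the IgG library, a ratio of 3.08 (2.27 to 4.25), while it was called in 13 and 10 barcodes, and 71.3% and 77.2% of its UMIs lay in 5 barcodes. Trbv17 had 129 and 237 UMIs, a ratio of 0.60 (0.48 to 0.74), with 10 and 17 called barcodes. Trbv1 had 576 and 339 UMIs, a ratio of 1.87 (1.63 to 2.14), and 1 S100A4-11 barcode held 107 of them, while it was called in 66 and 54 barcodes. Counted by barcode, neither Trbv16, Trbv17 nor Trbv1 passed.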

How the data were processed

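Lungs of BALB/c mice with 4T1 tumours were measured by single-cell RNA-seq, with 1 library per group. Per the labels' protocols, cells were prepared with the 10x 5′ kit V2, whose reads start at the 5′ end of transcripts and so cover V segments. Lung is the tissue in all labels except the protocol, which speaks of tumour. Per the submitters' processing notes, the authors used Cell Ranger 7.1.0 and build mm10; how reads that match several segments were counted is not given in the sources used here. The deposited matrices hold whole UMI counts per gene and barcode, with totals of 64695542 (S100A4-11) and 85458143 (IgG) and median depths of 3755 and 4140 UMIs.

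Barcodes with under 200 genes (101 S100A4-11, 67 IgG), over 15% mitochondrial UMIs (40, 59) or called as doublets by Scrublet in Scanpy 1.11.5 (615, 4.97%; 627, 4.39%) were removed, which left 11750 and 13658. The segment with most UMIs of a chain was called, and a tie gave no call. Shares have Clopper-Pearson intervals and ratios exact conditional intervals (SciPy 1.17.1), and the limit for a count of 0 is 3 counts. A ratio was read at 1.5-fold or more with an interval that leaves out 1, on at least 10 barcodes or 20 UMIs. Named were the 10 most used Trbv segments and Trav families, the superantigen and V beta 8 lists, Trav1, Trav11, every gamma or delta segment with at least 5 called barcodes, and any that passed. The members and lists were chosen with earlier results of these data known. The ratio procedure was tested on simulated data with known folds. Alternatives were doublets or every barcode kept, at least 2 UMIs for a call or for Cd3, other class rules, UMIs in place of barcodes, other scalings (TMM in edgeR 4.0.16 with R 4.3.3) and no low-count filter. Of the listed gamma-delta marker genes, 1 is not reported here.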

Additional observations from a re-analysis of the deposited data

How the results depend on the processing

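No paired analysis was possible because each group had 1 library, and for the same reason no library could be left out. Of the recomputed values of the main results, 125 stayed within their interval or within 1.5 times the count and 15 did not, and no ratio that had passed changed direction; the Trbv29 ratio between libraries in CD4 barcodes, 0.70, was 1.46 with UMIs in place of barcodes. With doublets kept, and with every deposited barcode kept, 1 CD4 Trbv segment, Trbv20, passed in each case, against 0 as reported. With at least 2 UMIs for a call, Trbv was called in 72.5% of S100A4-11 and 70.4% of IgG CD8 barcodes and in 71.7% and 68.2% of CD4 barcodes, Trav11 was called in 0% and 0%, and CD8 barcodes held 48 and 48 different pairs; this setting asks for more UMIs, so fewer barcodes enter. With UMIs in place of barcodes, 8 CD8 and 6 CD4 Trbv segments and 3 CD8 and 4 CD4 Trav families passed between libraries, and Trbv31 in CD8 over CD4 barcodes of the IgG library stood at 0.69 (0.51 to 0.93); UMIs of 1 cell are not independent. Pairs could not be counted by UMIs. The count of V segments that passed in summed levels was 21, and 20 to 25 over its alternatives. The gamma-delta results rest on 20 and 26 barcodes.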
